A study of Homo sapiens with 12 samples.

Results

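The AP-1 family described here comprises the FOS genes FOS, FOSB, FOSL1 and FOSL2, the JUN genes JUN, JUNB and JUND, and the small MAF genes MAFF and MAFG. Every probe set annotated to 1 of these 9 symbols was taken, whatever its level, which gave 17 of the 22215 probe sets tested. Of these, 6 belong to FOS genes, 8 to JUN genes and 3 to small MAF genes. A probe set is a group of short oligonucleotides on the array that report 1 transcript or a few related ones, and each was followed separately over 4 groups of 3 arrays.

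All 12 arrays came from K562, an established leukemia line that the labels call AML and that is generally described as derived from chronic myeloid leukemia in blast crisis. All cells, controls included, received recombinant Wnt3a at 100 ng/ml in medium without serum, and RNA was taken after 8 h, so no comparison measures the response to Wnt3a. The empty vector group was nucleofected with pEGFP-C2, and the CXXC5 overexpression group with a vector for EGFP-tagged CXXC5, both as transient transfections. The scrambled shRNA group and the CXXC5 knockdown group carried a pLKO.1 lentivirus as stable infections. Of the pair of shRNA clones against CXXC5 that are named, the labels do not tell which one a given knockdown array carried. Whether replicates were separate cultures is not stated, and p-values here therefore reflect only how far these samples spread, possibly for technical reasons.

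AP-1 is a dimer of basic leucine zipper proteins. FOS proteins do not bind DNA as homodimers and pair with a JUN protein, whereas JUN proteins can pair with either family, and the dimers bind the TPA response element or the related cyclic AMP response element. FOS, JUNB and MAFF are typical early response genes, transcribed soon after growth factor, stress or cytokine signals reach MAP kinases, serum response factor and CREB. Small MAF proteins lack a transactivation domain; they pair with NFE2, NRF2 or BACH proteins on MAF recognition and antioxidant response elements, and in erythroid cells the NFE2 and small MAF dimer is known for acting at globin genes.

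CXXC5 had 0 probe sets here, so overexpression and knockdown could not be checked against its own level, and the groups keep their label names. The array medians lay between 6.65 and 6.71 log2, and replicates of a group correlated at 0.996 to 0.998 over all probe sets. Scrambled shRNA replicate 3 stood apart in the difference between the 3' and 5' control probe sets, a sign of RNA and labelling quality, with 0.87 log2 for GAPDH against 0.227 to 0.335 in the other 11 arrays. The 8 erythroid markers measured had mean levels of 10.30 to 10.65 log2 per array, and some of them moved between groups. With overexpression 2 rose (TFRC by 0.43 and HBE1 by 0.27) and 1 fell (HBZ, by 0.35); with knockdown 4 fell (HBE1 by 0.56, ALAS2 by 0.49, HBZ by 0.44 and TFRC by 0.43) and GATA1 rose by 0.47. Between the controls 4 of the 8 were higher with scrambled shRNA and 2 lower. The 14 markers of lymphoid, monocyte, fibroblast, endothelial and epithelial cells had means of 5.81 to 6.02 per array, but the epithelial gene EPCAM (group means of 11.16 to 11.37) and the T cell gene CD3D (10.76 to 11.14) stood far above that mean. CD3D rose by 0.38 with overexpression, fell by 0.35 with knockdown and was higher by 0.35 with scrambled shRNA than with empty vector, and its first 2 calls ended in 10 and 6 of 21 alternatives. DCN, a fibroblast gene, was higher with scrambled shRNA by 0.53 (adjusted p = 0.0277), and by 0.02 when its probe sets were averaged. The part of these markers in the results below was not tested. In bulk RNA, fewer cells that express a gene and less RNA per cell cannot be told apart.

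With CXXC5 overexpression, 4 of the 17 probe sets rose over empty vector and 0 fell, at an adjusted p under 0.05 in limma with Benjamini-Hochberg adjustment over all 22215 probe sets. Among all probe sets, 2.27% rose and 1.92% fell. The risen probe sets were both of MAFF, the brightest of JUND and the only one of FOS; at an unadjusted p under 0.05, 7 were higher and 0 lower. The median log2 difference was 0.16 over the 17 probe sets and -0.00 over all.

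With CXXC5 knockdown, 11 of the 17 fell below scrambled shRNA and 0 rose, against 3.7% of all probe sets that fell and 6.13% that rose. The fall reached 7 of the 9 genes: MAFF, FOS, JUNB, JUND, JUN, FOSL1 and FOSL2. FOSB and MAFG did not pass. All 17 probe sets had a lower mean with knockdown than with scrambled shRNA, and in 13 the 3 knockdown arrays all lay below the 3 scrambled arrays, which held for 12.9% of all probe sets. At an unadjusted p under 0.05, 12 were lower and 0 higher, and the median difference was -0.48, against -0.01 over all. Without scrambled shRNA replicate 2, or without knockdown replicate 3, 7 of the 17 passed.

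The knockdown effect was lower than the overexpression effect in 10 of the 17 probe sets and higher in 0, against 5.82% lower and 9.1% higher of all probe sets, tested as a difference of both effects in the same fit. In 4 of the 17 the probe set both rose with overexpression and fell with knockdown, which held for 265 of all probe sets, or 1.19%. These 4 were the MAFF pair, the brightest of JUND and FOS.

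**Figure D1:**
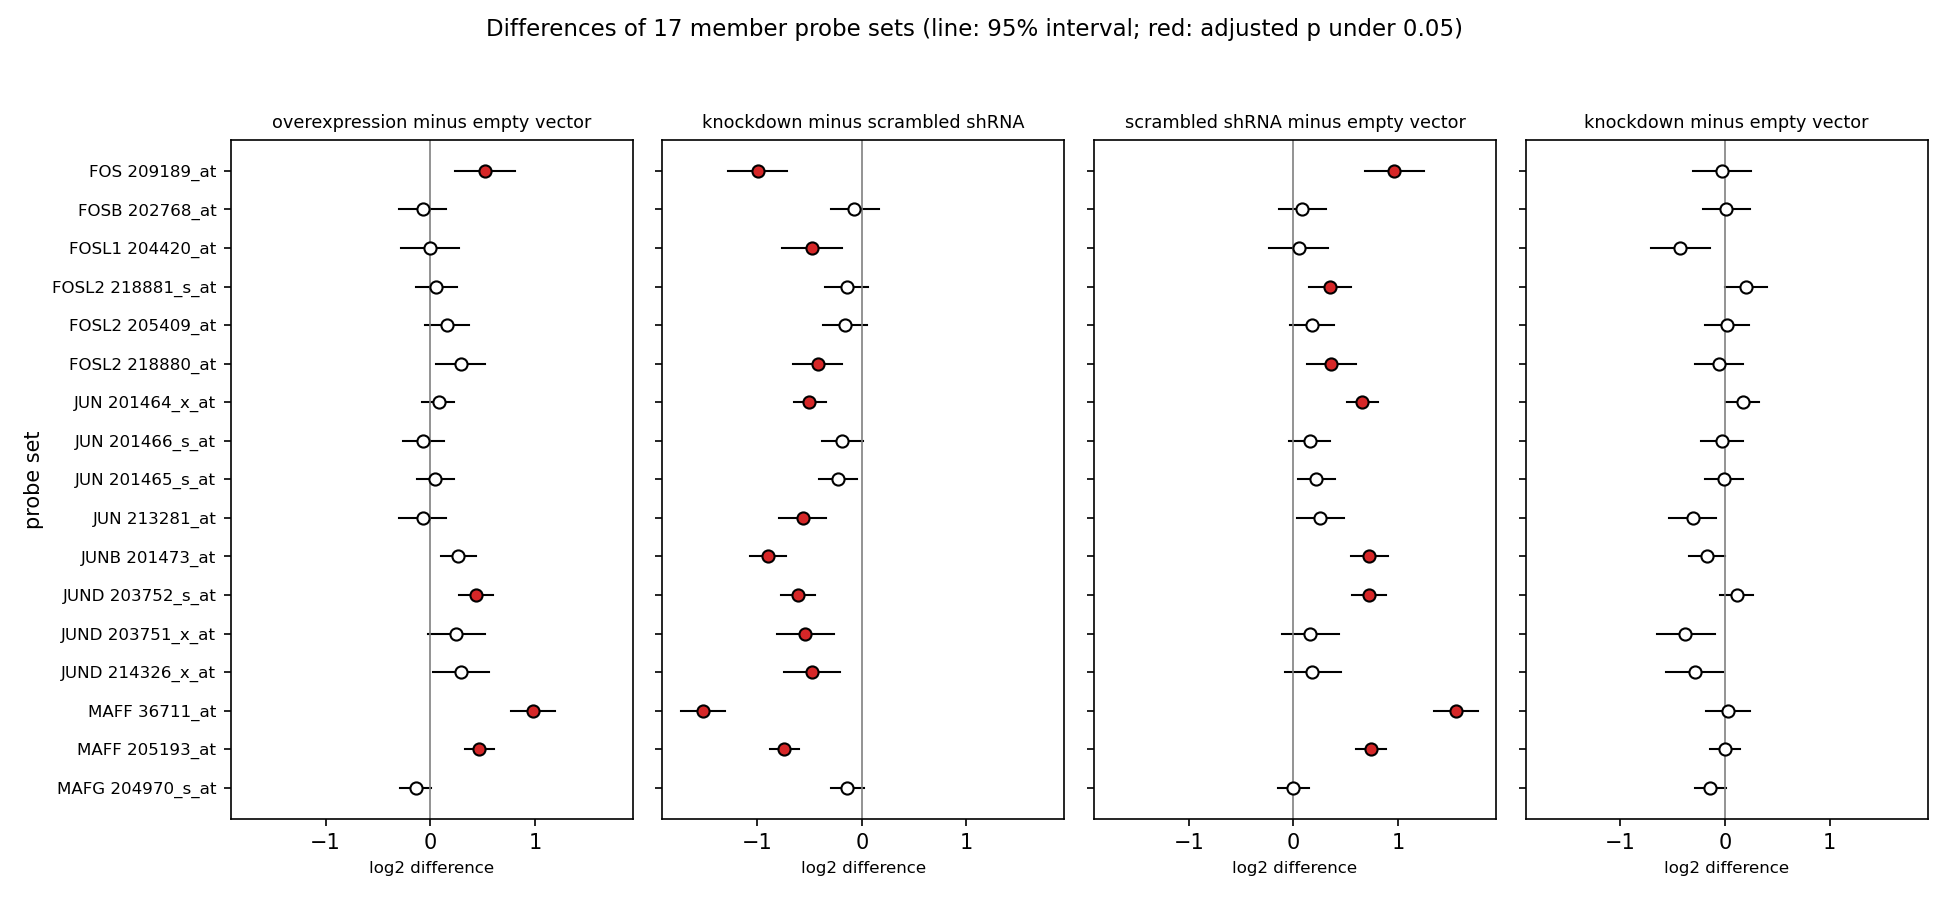
Log2 differences of the 17 probe sets in 4 panels, for overexpression over empty vector, knockdown over scrambled shRNA, scrambled shRNA over empty vector and knockdown over empty vector, each with its 95% confidence interval from the limma fit and in red where the adjusted p was under 0.05. MAFF runs from 0.98 with overexpression to -1.52 with knockdown, while FOSB and MAFG lie near 0 in all 4.

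The DNA just upstream of the genes that moved, and of relatives that did not, is shown to set the members side by side. The RefSeq promoter table (GRCh38.p14) held 8 of the 9 genes, with a second start for MAFF, or 9 windows of 250 bases that end at the base before the transcription start; FOSL1 was not matched. Both strands were searched for the TPA response element TGANTCA, the cyclic AMP response element TGACGTCA, its shorter part TGACG, which overlaps it, the JUN promoter variant TGACATCA, TATAAA, and the serum response factor CArG box by its name. Windows of 6 genes follow, 5′ to 3′ on the gene's own strand, with matches in capitals, where CGTCA is TGACG on the other strand. They are MAFF at chr22:38201744-38201993 on the plus strand, JUND at chr19:18281623-18281872 on the minus strand, JUNB at chr19:12791236-12791485 on the plus strand, FOS at chr14:75278578-75278827 on the plus strand, FOSB at chr19:45467746-45467995 on the plus strand and MAFG at chr17:81927736-81927985 on the minus strand.
MAFF: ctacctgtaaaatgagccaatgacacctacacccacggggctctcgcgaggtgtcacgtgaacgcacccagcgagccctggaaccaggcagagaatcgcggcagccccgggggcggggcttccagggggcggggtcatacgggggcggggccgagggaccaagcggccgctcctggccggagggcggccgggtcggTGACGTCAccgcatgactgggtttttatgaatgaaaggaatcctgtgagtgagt
JUND: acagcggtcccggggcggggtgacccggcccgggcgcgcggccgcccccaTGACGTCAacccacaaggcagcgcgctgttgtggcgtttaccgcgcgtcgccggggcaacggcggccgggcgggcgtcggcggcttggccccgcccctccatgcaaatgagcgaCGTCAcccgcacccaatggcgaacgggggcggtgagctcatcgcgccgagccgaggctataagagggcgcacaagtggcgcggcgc
JUNB: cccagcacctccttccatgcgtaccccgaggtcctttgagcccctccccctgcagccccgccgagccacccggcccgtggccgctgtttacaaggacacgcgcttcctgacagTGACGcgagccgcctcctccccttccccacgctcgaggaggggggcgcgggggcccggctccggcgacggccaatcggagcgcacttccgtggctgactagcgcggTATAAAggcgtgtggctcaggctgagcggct
FOS: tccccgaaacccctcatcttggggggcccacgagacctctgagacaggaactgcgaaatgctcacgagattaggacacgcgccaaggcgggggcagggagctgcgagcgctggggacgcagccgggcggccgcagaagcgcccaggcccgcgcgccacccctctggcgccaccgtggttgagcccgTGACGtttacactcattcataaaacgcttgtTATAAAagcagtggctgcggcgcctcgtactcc
FOSB: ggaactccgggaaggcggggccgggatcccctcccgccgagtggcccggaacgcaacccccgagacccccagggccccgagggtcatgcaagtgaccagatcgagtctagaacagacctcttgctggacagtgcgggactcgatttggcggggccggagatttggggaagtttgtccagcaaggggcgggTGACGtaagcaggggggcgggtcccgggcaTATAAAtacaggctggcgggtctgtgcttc
MAFG: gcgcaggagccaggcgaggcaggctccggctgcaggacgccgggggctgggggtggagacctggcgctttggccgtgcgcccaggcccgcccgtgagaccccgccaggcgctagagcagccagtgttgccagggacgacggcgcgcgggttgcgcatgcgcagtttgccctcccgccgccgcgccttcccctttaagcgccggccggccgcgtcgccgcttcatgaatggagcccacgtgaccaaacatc

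TGACGTCA stood in 2 of the 9 member windows, those of JUND and of the first MAFF start, and in 1.65% of 35116 promoter windows of the same length. The MAFF match begins 54 bases before the start and the JUND match 200 bases before it. TGACG stood in 7 of the 9 windows and in 21.2% of all, among them 64 bases before the FOS start, 60 before FOSB and 137 before JUNB. TATAAA stood in 3 of the 9, at 33 bases for FOS, 30 for FOSB and 31 for JUNB, and in 10.7% of all. JUN held TGACATCA 67 bases before its start, as did 2.37% of all windows at any position. TGANTCA and the CArG box were found in 0 of the 9 windows, against 6.57% and 1.16% of all. Bases farther upstream were not searched, so the absence holds for the windows only and does not show that FOS or another member lacks such a site. The windows of MAFG and of the second MAFF start held none of the motifs. The FOS and FOSB windows hold the same pair of motifs at similar distances. FOS passed both tests and FOSB neither, and a link between motifs and these calls was not tested. A match describes the letters of the window and is not evidence of a bound factor.

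Among the FOS genes, FOS itself, the prototype early response partner of JUN, changed most. Its probe set, 209189_at, read 5.87, 5.79 and 5.72 log2 in the empty vector arrays, 6.45, 6.28 and 6.23 with overexpression, 6.93, 6.95 and 6.40 with scrambled shRNA, and 5.77, 5.65 and 5.87 with knockdown. All overexpression arrays lay above all empty vector arrays and all knockdown arrays below all scrambled arrays, and scrambled replicate 3 sat below the others of its group. FOS was 1.99-fold lower with knockdown (log2 difference -0.99, SE 0.13, adjusted p = 0.00072) and 1.44-fold higher with overexpression (0.52, SE 0.13, adjusted p = 0.045). The effects differed by -1.52 (SE 0.184, adjusted p = 0.000217). The knockdown difference was -1.17 without scrambled replicate 3, the array with the raised GAPDH ratio. The rise with overexpression was less firm than the fall with knockdown, which passed in all alternatives: under 21 of them it stayed between 0.46 and 0.57, but the adjusted p ran from 0.00425 to 0.138, and it missed 0.05 after quantile normalization (0.49) and without any 1 of the empty vector, overexpression or knockdown arrays.

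FOSL1, also called FRA1, a FOS relative without the strong activation domain, fell with knockdown and had a difference of -0.00 with overexpression. Its probe set, 204420_at, read 7.02, 7.18 and 7.02 with empty vector, 7.23, 7.17 and 6.81 with overexpression, 7.00, 7.07 and 7.29 with scrambled shRNA, and 6.86, 6.43 and 6.65 with knockdown. The knockdown arrays were the lowest of all groups apart from an overlap with 1 overexpression array. The fall was 0.48 log2 (SE 0.13, 1.39-fold, adjusted p = 0.0375). This call ended in 9 of 21 alternatives, with differences between -0.58 and -0.37 and adjusted p up to 0.131. These were the fit on 6 arrays (-0.48), the fit with the replicate number as a block (-0.48), and the fits without empty vector replicates 1 or 3, overexpression replicate 2, scrambled replicates 2 (-0.50) or 3 (-0.39), or knockdown replicates 2 (-0.37) or 3 (-0.48).

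FOSL2, or FRA2, has 3 probe sets, and 1 of them fell with knockdown. That probe set, 218880_at, read 4.95, 4.75 and 4.96 with empty vector, 5.19, 5.09 and 5.26 with overexpression, 5.22, 5.41 and 5.12 with scrambled shRNA, and 5.05, 4.74 and 4.69 with knockdown. Overexpression and scrambled arrays lay above those of the other groups. It fell by 0.42 with knockdown (SE 0.107, adjusted p = 0.0269); its difference with overexpression was 0.29 (adjusted p = 0.174). The fall missed the threshold in the 6-array fit (-0.42) and without scrambled replicates 1 (-0.44) or 2 (-0.34) or knockdown replicates 2 (-0.38) or 3 (-0.36). The other FOSL2 probe sets ranged from 5.48 to 6.12 over all arrays and had knockdown differences of -0.14 and -0.16, with adjusted p of 0.374 and 0.351. The 3 probe sets correlated weakly with each other, at r = 0.39 to 0.47 over the 12 arrays.

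FOSB (202768_at), a close relative of FOS, stayed within 6.00 to 6.38 log2 on all 12 arrays, and the 4 groups overlapped. The knockdown difference was -0.07 (95% interval -0.29 to 0.16) and the overexpression difference -0.07 (-0.30 to 0.15). A shift of signal as large as that of FOS with knockdown lies outside both intervals. The probe set stood at percentile 44.2 of the mean levels of all probe sets, near FOS at 43.3. Whether it read FOSB RNA at this level was not tested. The test of the difference between its 2 effects gave 0.01 (adjusted p = 0.983).

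JUNB, a JUN protein known for weaker activation than JUN and for restraining myeloid growth, fell with knockdown in clearly separated groups. Its probe set, 201473_at, read 7.99, 7.81 and 7.99 with empty vector, 8.23, 8.21 and 8.15 with overexpression, 8.53, 8.62 and 8.81 with scrambled shRNA, and 7.73, 7.80 and 7.74 with knockdown. No 2 of the groups overlapped. JUNB was 1.86-fold lower with knockdown (-0.90, SE 0.0788, adjusted p = 4.24e-05), and the effects differed by -1.16 (adjusted p = 4.25e-05). The overexpression difference was 0.27 (SE 0.0788, adjusted p = 0.0843) and missed the threshold. It passed without scrambled shRNA replicate 3 (0.27, adjusted p = 0.0329), with array weights (0.30) and with the 40% of probe sets of lowest mean left out (0.27), within a range of adjusted p from 0.0167 to 0.307.

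JUND, the most steadily expressed JUN gene in many cells, moved in both comparisons. Its brightest probe set, 203752_s_at, read 11.61, 11.49 and 11.43 with empty vector, 12.02, 11.95 and 11.87 with overexpression, 12.22, 12.24 and 12.23 with scrambled shRNA, and 11.72, 11.53 and 11.60 with knockdown. The scrambled and overexpression arrays lay above every empty vector and knockdown array. JUND was 1.53-fold lower with knockdown (-0.61, SE 0.0718, adjusted p = 0.000341) and 1.36-fold higher with overexpression (0.44, SE 0.0718, adjusted p = 0.00477).

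The other JUND probe sets, both of the x_at type whose probes may also match other transcripts, fell with knockdown too, by 0.54 (adjusted p = 0.0179) and 0.48 (adjusted p = 0.0294). With overexpression their differences were 0.25 and 0.29, and neither passed (adjusted p = 0.34 and 0.237). Unlike the brightest, they had their highest mean with overexpression, and the difference from the scrambled group did not pass (0.08 and 0.11, adjusted p = 0.685 and 0.576). They correlated with each other at r = 0.90 and with the brightest at 0.60 and 0.57. The first, 203751_x_at, lost its fall without scrambled replicate 2 (-0.52) or knockdown replicate 3 (-0.41). The second, 214326_x_at, lost it in the 6-array fit (-0.48) and without scrambled replicates 1 (-0.38) or 2 (-0.50) or knockdown replicates 1 (-0.45) or 3 (-0.42).

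JUN, which encodes c-Jun, the strongest activator among the JUN proteins, fell with knockdown and did not pass with overexpression. Its brightest probe set, 201464_x_at, read 10.25, 10.14 and 10.10 with empty vector, 10.24, 10.25 and 10.23 with overexpression, 10.85, 10.72 and 10.90 with scrambled shRNA, and 10.43, 10.28 and 10.28 with knockdown. The scrambled arrays alone stood high. The knockdown difference was -0.50 (SE 0.0706, 1.41-fold lower, adjusted p = 0.0012), and the overexpression difference was 0.08 (95% interval -0.08 to 0.23, adjusted p = 0.667).

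Of the other 3 JUN probe sets, 213281_at fell with knockdown by 0.56 (adjusted p = 0.00509), with 7.00, 6.89 and 7.23 in the scrambled arrays and 6.56, 6.31 and 6.56 in the knockdown arrays. The remaining 2 had knockdown differences of -0.19 and -0.23 (adjusted p = 0.225 and 0.0986). Overexpression differences of these 3 lay between -0.07 and 0.05. The effects differed by -0.57 for the brightest JUN probe set (adjusted p = 0.00245). For 213281_at they differed by -0.49 (adjusted p = 0.0405), a call that ended in 9 of 18 alternatives: with the replicate block (-0.49) and without empty vector replicates 1 or 3, any overexpression array, scrambled replicates 1 or 3, or knockdown replicate 2, at -0.51 to -0.40. All 4 JUN probe sets had their highest mean with scrambled shRNA.

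MAFF, an inducible small MAF, moved more than any other member in both comparisons. Its brighter probe set, 36711_at, read 8.15, 8.07 and 8.07 with empty vector, 9.18, 9.01 and 9.05 with overexpression, 9.54, 9.64 and 9.76 with scrambled shRNA, and 8.30, 7.91 and 8.18 with knockdown. Overexpression and scrambled arrays each formed a tight cluster apart from the empty vector and knockdown arrays, which overlapped. MAFF was 2.86-fold lower with knockdown (-1.52, SE 0.0969, adjusted p = 2.9e-06) and 1.98-fold higher with overexpression (0.98, SE 0.0969, adjusted p = 0.000167), and the effects differed by -2.50 (adjusted p = 5.56e-07).

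The other MAFF probe set, 205193_at, read 6.77, 6.88 and 6.78 with empty vector, 7.30, 7.27 and 7.27 with overexpression, 7.56, 7.56 and 7.54 with scrambled shRNA, and 6.77, 6.74 and 6.92 with knockdown. It showed the same order of groups above the empty vector and knockdown level and smaller differences, of -0.74 with knockdown (adjusted p = 3.69e-05) and 0.47 with overexpression (adjusted p = 0.00145). The MAFF pair correlated at r = 0.98 over the 12 arrays. Both MAFF calls, in both comparisons, held under each alternative tried.

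MAFG, a small MAF that pairs with NRF2 and NFE2, did not share the changes of MAFF. Its probe set, 204970_s_at, read 9.38, 9.38 and 9.39 with empty vector, 9.28, 9.20 and 9.25 with overexpression, 9.39, 9.40 and 9.36 with scrambled shRNA, and 9.37, 9.10 and 9.27 with knockdown. The overexpression arrays lay below the empty vector arrays by a mean of 0.14 (95% interval of the difference -0.29 to 0.01, adjusted p = 0.335). The knockdown difference was -0.14 (-0.29 to 0.02, adjusted p = 0.255), and the difference of the effects was 0.00 (-0.21 to 0.22).

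**Figure D2:**
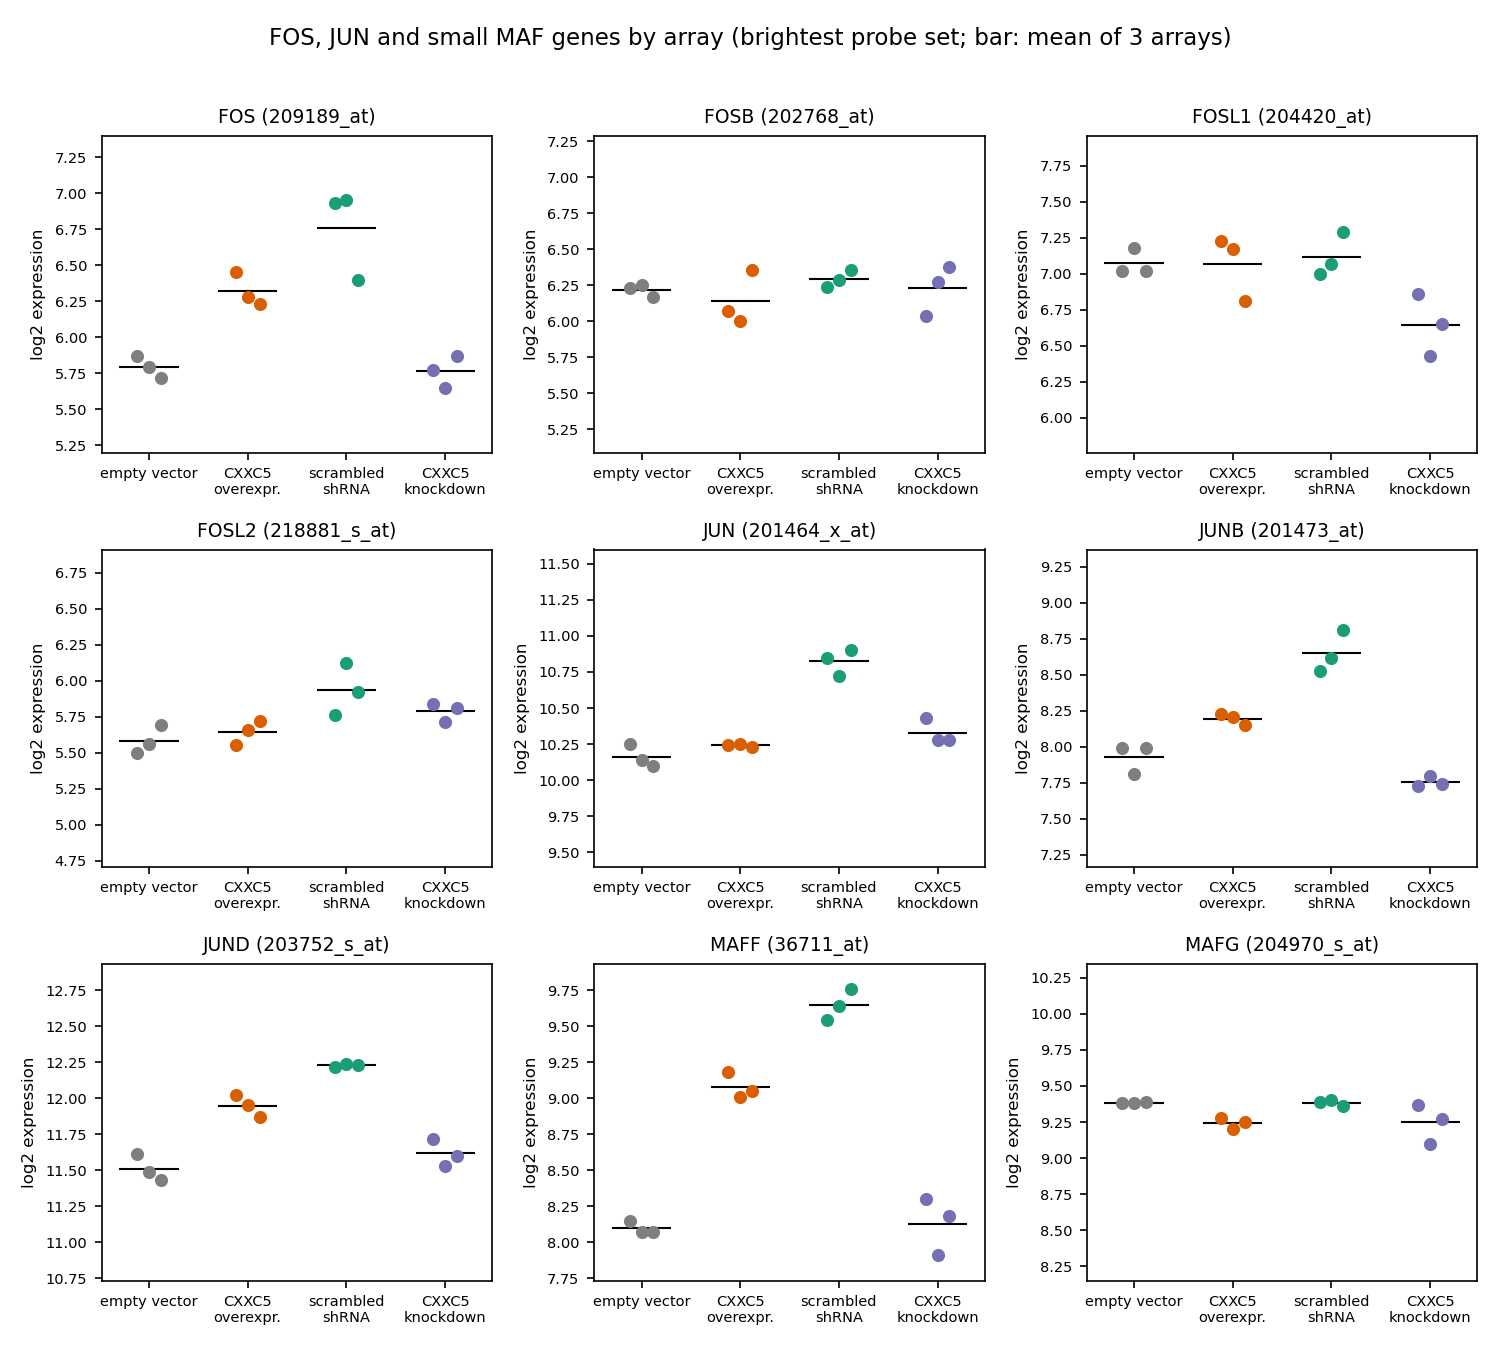
Log2 level of the 9 genes by their brightest probe set, with 1 point for each of the 12 arrays, and a bar at each group mean. MAFF, FOS, JUNB and JUND are high with scrambled shRNA and with CXXC5 overexpression and low with empty vector and CXXC5 knockdown, JUN is high with scrambled shRNA alone, and FOSB and MAFG vary little.

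The knockdown differences must be read beside the level of their control. The scrambled shRNA group had the highest mean of the 4 groups in 14 of the 17 probe sets and in 8 of the 9 genes by their brightest probe set, against 32.4% of all probe sets. Between the controls, 8 of the 17 were higher with scrambled shRNA than with empty vector and 0 lower, against 13.4% of all probe sets higher and 14.3% lower. MAFF was 2.92-fold higher (1.55, SE 0.0969, adjusted p = 1.32e-06), FOS 1.95-fold (0.96, adjusted p = 0.00037), JUNB and JUND 1.65-fold (0.72 each, adjusted p = 8.59e-05 and 4.71e-05) and JUN 1.58-fold (0.66, adjusted p = 7.68e-05). These values are from the brightest probe set of each gene. The dimmer MAFF probe set passed as well, at 0.74. The other JUND probe sets differed by 0.16 and 0.18 and did not pass in limma (adjusted p = 0.353 and 0.287). Nor did the other JUN probe sets, at 0.16, 0.22 and 0.25 (adjusted p = 0.211, 0.066 and 0.086). This comparison shares the scrambled arrays with the knockdown comparison and the empty vector arrays with the overexpression comparison, and delivery by nucleofection or lentivirus cannot be told apart from the vector itself.

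A pair of FOSL2 probe sets was also higher, by 0.35 (218881_s_at) and 0.36 (218880_at). The former missed the threshold without empty vector replicates 1 (0.30) or 2 (0.34) or scrambled replicate 2 (0.25), and the latter after quantile normalization (0.32) and without empty vector replicate 2 (0.30) or scrambled replicate 2 (0.28).

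Knockdown and empty vector levels were close for MAFF and FOS, while the probe sets of JUND and of JUN differed in sign. Between these groups, 0 of the 17 probe sets passed in limma at an adjusted p under 0.05, against 3.24% of all probe sets called in either direction. With so low a share, 0 of 17 does not show that the levels are equal. At an unadjusted p under 0.05, 2 of the 17 were higher and 5 lower. Delivery differed between these groups, so a difference or its absence cannot be told apart from delivery. By the brightest probe set, the difference of knockdown over empty vector was 0.03 for MAFF (95% interval -0.18 to 0.24) and -0.03 for FOS (-0.31 to 0.25). It was 0.11 for JUND (-0.05 to 0.27) and -0.17 for JUNB (-0.34 to -0.00). The other JUND probe sets were lower, at -0.38 (-0.65 to -0.10) and -0.29 (-0.56 to -0.02). Those of JUN ran from 0.17 (0.01 to 0.32) for the brightest to -0.31 (-0.54 to -0.09) for 213281_at. FOSL1 was the lowest relative to empty vector, at -0.43 (-0.71 to -0.14, adjusted p = 0.0927). With array weights 3 were called, all lower with knockdown: FOSL1 (-0.48), a dim JUND probe set (-0.47) and JUN 213281_at (-0.33).

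Overexpression levels took no single place in the order of group means. The overexpression arrays came from nucleofected cells and the scrambled and knockdown arrays from infected cells. Differences between them therefore cannot be told apart from delivery. Of the 17, 6 were lower with overexpression than with scrambled shRNA, against 7.8% of all: JUN by 0.59, both MAFF probe sets by 0.57 and 0.27, JUNB by 0.45, FOS by 0.44 and the brightest of JUND by 0.28. FOS overlapped between these groups, and its call (adjusted p = 0.0409) ended in 9 of 21 alternatives, at -0.51 to -0.34: the 6-array fit and the fits without empty vector replicates 1 or 2, any overexpression array, scrambled replicates 1 or 2, or knockdown replicate 3. The JUND call ended without overexpression replicates 2 (-0.28) or 3 (-0.24) or scrambled replicates 2 or 3 (both -0.28), and when its probe sets were averaged (-0.03), while the dimmer MAFF probe set missed without overexpression replicate 2 (-0.27). Without that array 3 of the 17 were called.

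Over knockdown, where delivery differed as well, 7 of the 17 were higher with overexpression, against 5.33% of all. They were both MAFF probe sets (0.95 and 0.47), all 3 of JUND (0.33, 0.62 and 0.59), FOS (0.55) and JUNB (0.44). FOS missed the threshold without overexpression replicate 1 (0.49) or knockdown replicate 2 (0.50), and the brightest of JUND without knockdown replicate 2 (0.29). JUN had a difference of -0.09 here (-0.24 to 0.06). The order of scrambled shRNA, then overexpression, then empty vector and knockdown in either order was seen in the means of 8 of the 17 probe sets and in 10.6% of all. Over the 4 groups at once, 12 of the 17 differed by limma's F test, against 27.5% of all probe sets, with adjusted p of 1.78e-06 for MAFF, 7.23e-05 for JUNB, 0.00014 for JUND, 0.000227 for JUN and 0.000636 for FOS.

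**Figure D3:**
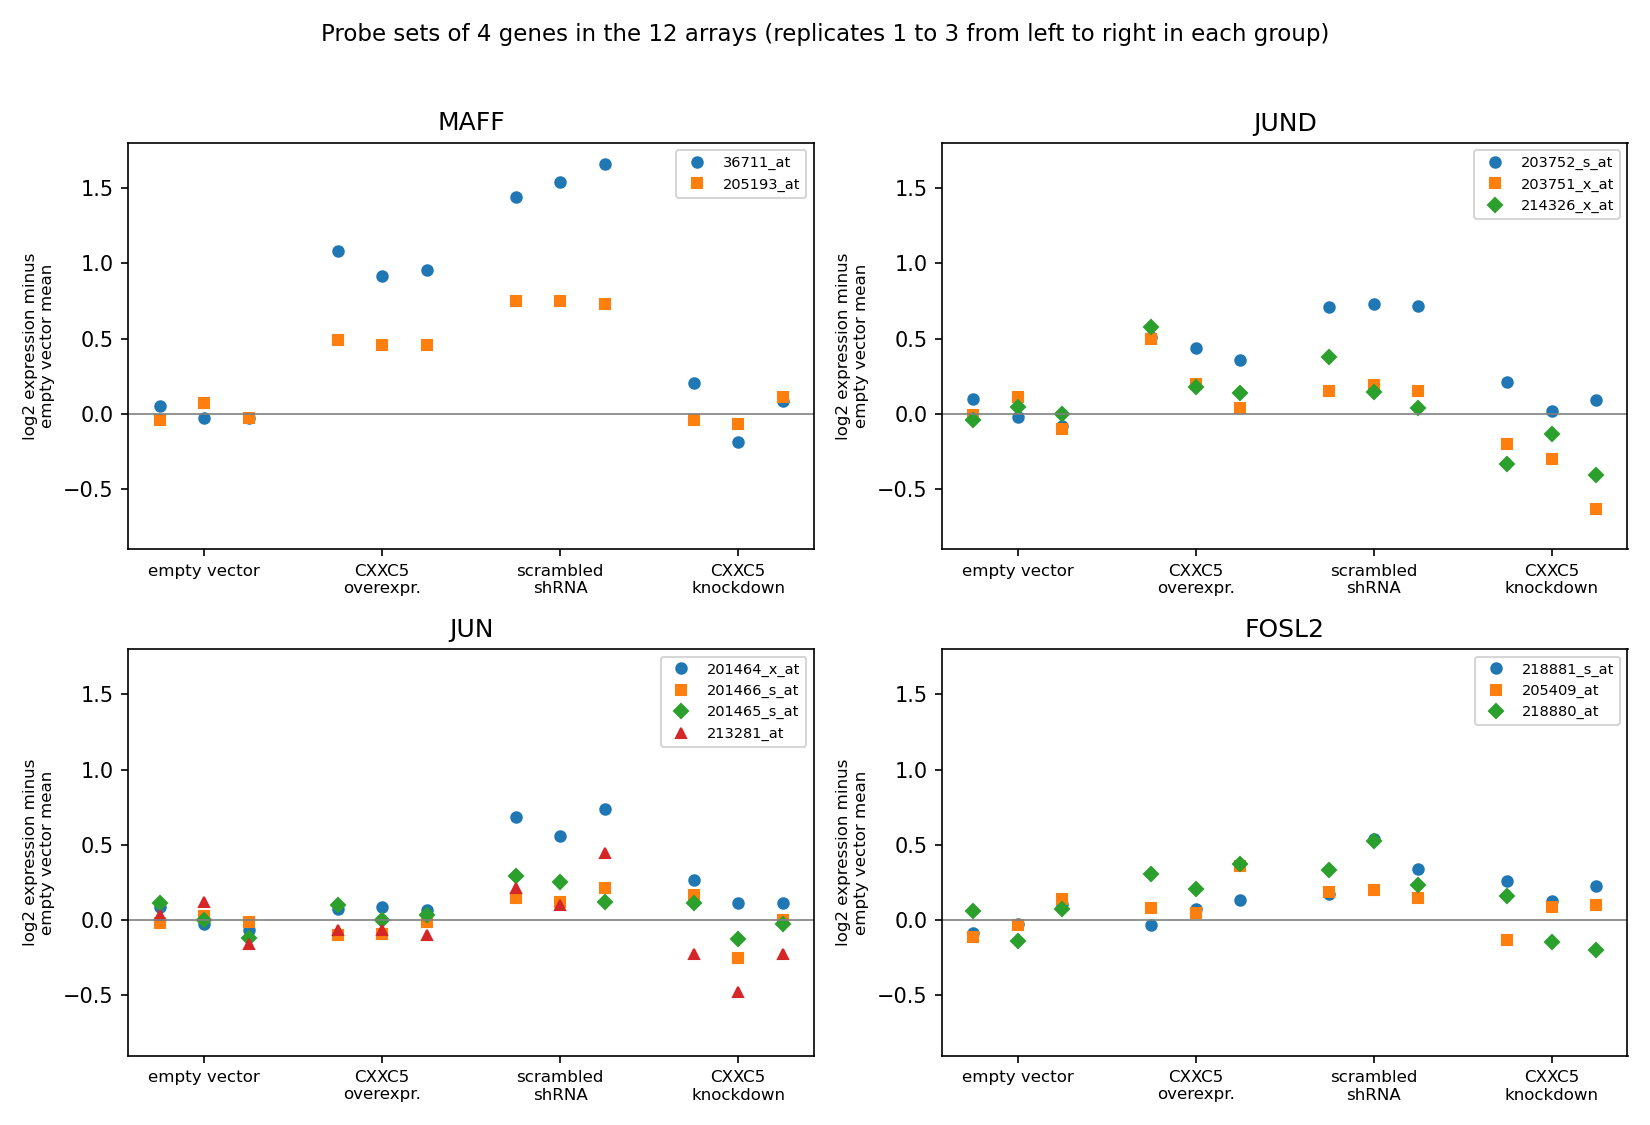
Each probe set of MAFF, JUND, JUN and FOSL2 as the log2 level minus its own empty vector mean (vertical axis), with 1 mark for each of the 12 arrays in their 4 groups. Both MAFF probe sets move together, the JUND probe sets part between overexpression and scrambled shRNA, and the FOSL2 probe sets spread.

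Over the 12 arrays FOS, JUNB, JUND and MAFF tracked each other. Pearson's r was 0.98 between JUND and MAFF, 0.94 between JUNB and MAFF, 0.93 between FOS and JUND and 0.92 between FOS and MAFF. JUN correlated at 0.72 to 0.82 with FOS, JUNB, JUND and MAFF, and FOSL1 at 0.25 to 0.58 with the other 5. The 12 points share 4 group means, so these values describe the group pattern.

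The same measure over 11954 other genes, each by its brightest probe set, named the genes whose pattern was most like that of each member. MAFF was closest to CD69, an early activation antigen (r = 0.986), KBTBD2 (0.984) and EGR3, a zinc finger early response factor (0.983). JUND was closest to KCNK1 (0.988), MS4A4A (0.988) and CD69 (0.984), and FOS to STK24 (0.981), RHOB (0.975) and IRS2 (0.975). JUNB was closest to TNF (0.968, from a dim probe set), the urokinase gene PLAU (0.965) and the chemokine CXCL10 (0.964). JUN was closest to the chemokine CXCL8 (0.976), GAB2 (0.967) and BTG3 (0.964). Those of FOSL1 were lower, at 0.89 for NOP14-AS1, 0.888 for ALB and 0.884 for ATF6B. CXCL10 differed by -2.89 with knockdown and 0.79 with overexpression, and EGR3 by -2.04 and 1.18.

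Other basic leucine zipper genes that pair with the members were taken by their brightest probe set. Of 14 measured, BATF3, a partner of JUN, rose with overexpression (0.34, adjusted p = 0.0282) and 0 fell, against 2.83% of all genes risen and 2.42% fallen. With knockdown 2 rose and 1 fell, against 7.39% and 4.42% of all genes. They were the stress factor ATF3 (0.40, adjusted p = 0.0307), the erythroid small MAF partner NFE2 (0.26, adjusted p = 0.0454) and NFE2L2, which encodes NRF2 (-0.23, adjusted p = 0.0452). The median difference was 0.03 with overexpression and -0.07 with knockdown, against 0.00 and -0.01 over all genes. None of these 4 calls was firm: each ended without several single arrays, with values of 0.29 to 0.37 for BATF3, 0.34 to 0.44 for ATF3, 0.21 to 0.30 for NFE2 and -0.29 to -0.19 for NFE2L2 over the alternatives. In the difference of effects 2 of the 14 were higher and 3 lower, against 10.7% and 6.85% of all genes, with ATF3 at 0.74 (adjusted p = 0.00474) and BATF3 at -0.56 (adjusted p = 0.0047). Between the controls 5 were higher with scrambled shRNA and 1 lower, against 15.1% and 14.3% of all genes, among them NRL (0.45), BATF3 (0.44) and ATF3 (0.35, adjusted p = 0.0263). ATF3, an early response gene as well, thus differed in the same direction as FOS and JUNB between the controls and in the opposite one with knockdown, and its overexpression difference of -0.35 did not pass (adjusted p = 0.0883). The ATF3 call between the controls was not firm either: it ended in 4 of 21 alternatives, with adjusted p up to 0.112 in limma.

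The kinases and factors upstream of AP-1 showed no change of RNA that passed with overexpression or with knockdown. Of 22 measured MAP kinases, their kinases, ELK factors, serum response factor and related genes, 0 passed in limma in either comparison, with 2 higher and 1 lower at an unadjusted p under 0.05 with overexpression and 3 higher and 2 lower with knockdown. Among all genes, 2.83% rose and 2.42% fell with overexpression, and 7.39% rose and 4.42% fell with knockdown. Whether 0 of 22 differs from these shares was not tested. The largest differences were -0.27 for MAP3K1 and 0.28 for RPS6KA1 with overexpression, and 0.45 for MAP3K1 and -0.42 for RPS6KA5 with knockdown. RPS6KA1 passed in 1 alternative of 21 and RPS6KA5 in 5. In the difference of effects 1 was higher (MRTFB, a serum response factor coactivator, 0.49, adjusted p = 0.00875) and 1 lower (MAPK7, -0.42, adjusted p = 0.0482, a call that ended in 12 of 20 alternatives at -0.50 to -0.26). Between the controls 3 were higher with scrambled shRNA (RPS6KA1 by 0.45, MAPK8 by 0.36 and ELK1 by 0.25) and 1 was lower (ELK4, by 0.41, and by 0.21 when its probe sets were averaged). Of all genes, 15.1% were higher and 14.3% lower between the controls, and 10.7% were higher and 6.85% lower in the difference of effects. MAPK8 missed the threshold without empty vector replicate 2 (0.34) or scrambled replicate 2 (0.29), and ELK1 without empty vector replicate 3 (0.21) and when its probe sets were averaged (0.01). RNA levels say nothing of phosphorylation, by which these proteins act on AP-1.

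Of 29 measured genes known as AP-1 targets, 2 rose and 1 fell with overexpression, and 0 rose and 4 fell with knockdown, with medians of 0.08 and -0.10. The shares of all genes that rose and fell were 2.83% and 2.42% with overexpression and 7.39% and 4.42% with knockdown. At an unadjusted p under 0.05 in limma, 5 of the 29 were higher and 2 lower with overexpression. With knockdown 6 were higher and 7 lower at that threshold, so the list as a whole did not move in 1 direction. CXCL8, the neutrophil chemokine, fell 4.66-fold with knockdown (-2.22, adjusted p = 3.16e-07), and the cytokine IL6 fell 2.17-fold (-1.12, adjusted p = 3.71e-06). PLAU fell 1.96-fold (-0.97, adjusted p = 6.98e-06) and TNF 1.87-fold (-0.90, adjusted p = 4.29e-05). The TNF probe set was dim, at percentile 20.6 of the mean levels of all probe sets. With overexpression IL6 rose by 0.72 (adjusted p = 0.00021) and PLAU by 0.35 (adjusted p = 0.0139), and MT2A, a metallothionein that is also a zinc-responsive gene, fell 7.53-fold (-2.91, adjusted p = 6.33e-06). Whether AP-1 acted on any of these genes was not tested. The PLAU rise missed the threshold without empty vector replicate 3 (0.32) or overexpression replicates 1 (0.33) or 3 (0.35). CXCL8, IL6, PLAU and TNF were all higher with scrambled shRNA than with empty vector, by 2.94, 1.20, 0.86 and 0.86, in a comparison where 9 of the 29 were higher and 4 lower, against 15.1% and 14.3% of all genes.

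Of 20 measured targets of NRF2 and small MAF dimers, 0 rose and 2 fell with overexpression, and 4 rose and 0 fell with knockdown. The shares of all genes were 2.83% risen and 2.42% fallen with overexpression, and 7.39% and 4.42% with knockdown, and the list's medians were -0.04 and 0.03. Between the controls 4 were higher with scrambled shRNA and 1 lower, against 15.1% and 14.3% of all genes: SLC7A11, the cystine transporter, by 0.85, PGD by 0.29, TKT by 0.27 and OSGIN1 by 0.24, with NQO1 lower by 0.36. MAFF was higher in that comparison too. It rose with overexpression, where 0 of these targets rose, and fell with knockdown, where 0 of them fell. A link between MAFF and these targets was not tested. The SLC7A11 call passed in all alternatives, at 0.52 to 0.91, while the PGD, TKT and NQO1 calls ended in 11, 3 and 3 of 21. PIR, which encodes pirin, rose 2.07-fold with knockdown (1.05, adjusted p = 0.000656) and NQO1, a quinone reductase, 1.49-fold (0.58, adjusted p = 0.00457). GCLM, a subunit of the enzyme that starts glutathione synthesis, fell with overexpression (-0.73, adjusted p = 0.000981) and rose with knockdown (0.37, adjusted p = 0.0257). ABCC1, a glutathione conjugate exporter, fell by 0.27 (adjusted p = 0.0484) and rose by 0.27 (adjusted p = 0.0273). Both ABCC1 calls and the GCLM rise ended without several single arrays, at -0.31 to -0.25 and 0.22 to 0.36 for ABCC1 and at 0.32 to 0.42 for GCLM.

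**Figure D4:**
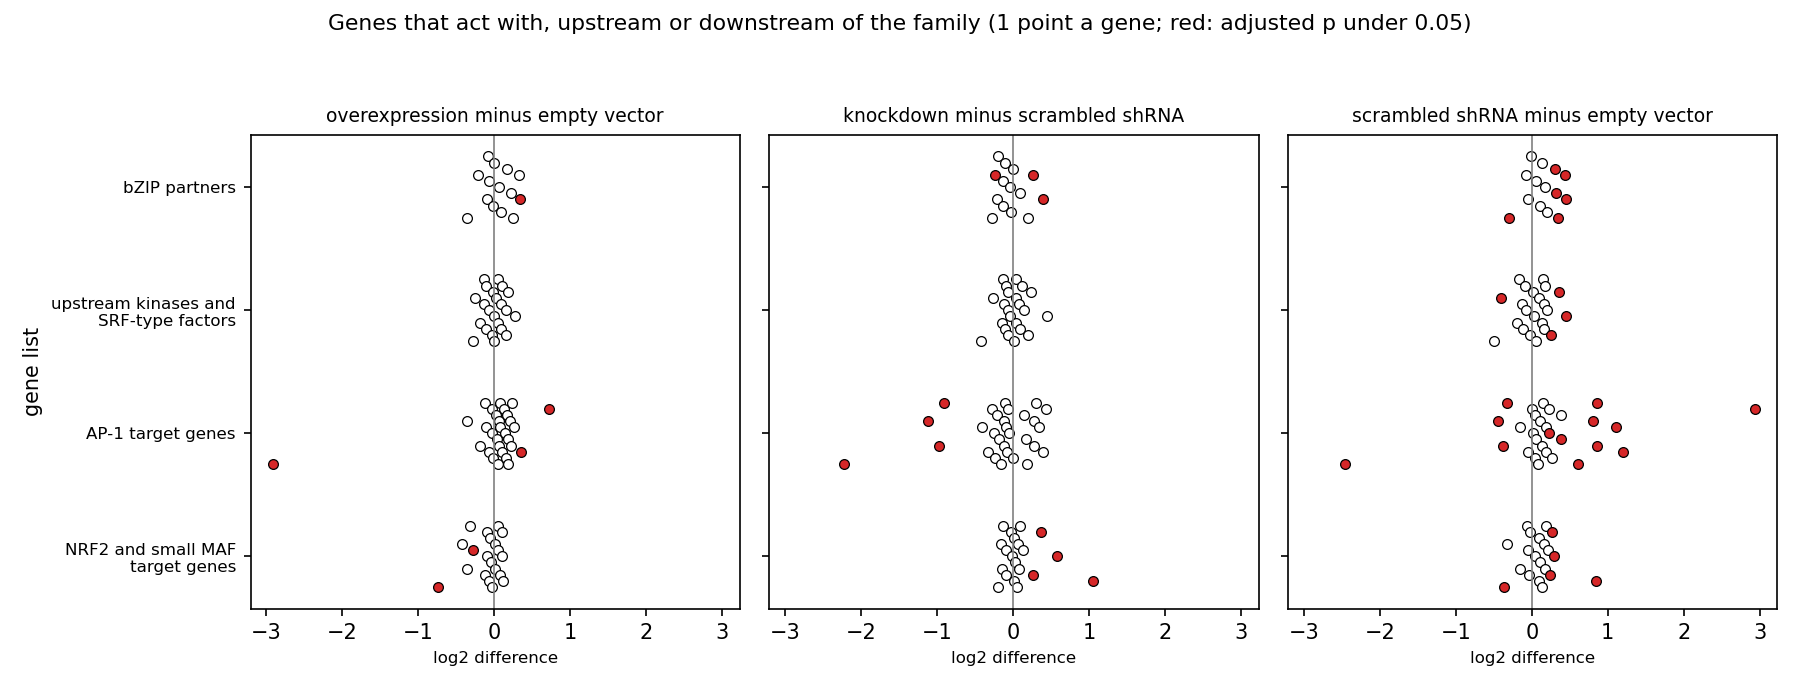
Log2 differences of the 4 lists of related genes, with 1 point per gene by its brightest probe set and red where the adjusted p was under 0.05, for overexpression over empty vector, knockdown over scrambled shRNA and scrambled shRNA over empty vector; the vertical spread within a list has no meaning. The upstream genes gather around 0 in the first 2 panels, while CXCL8 at -2.22 with knockdown and MT2A at -2.91 with overexpression lie farthest out.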

How the data were processed

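RNA of 12 samples was measured on 1 Affymetrix 3' expression array each. The authors deposited log2 values per probe set, summarised with Affymetrix Expression Console per the submitters' processing notes; for its version and method, the sources used here give nothing. The log2 scale was inferred from the range of 2.07 to 14.4. Detection calls and scan batches were not analysed here. Precision is limited by the number of arrays.

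Of 22277 probe sets, 62 controls were left out, and 22215 were fitted with limma 3.58.1 in R 4.3.3 (lmFit, 1 coefficient per group over 12 arrays, 8 residual degrees of freedom, eBayes with the default prior). Tests were two-sided, adjusted by Benjamini-Hochberg over all probe sets, with a threshold of 0.05. Group comparisons were the 4 of the design and the 3 other pairs. Probe sets were named from the platform annotation; 0 member symbols needed an update, and 11963 genes had a probe set of 1 symbol. No replicate pair held identical values. The members and lists were chosen with earlier results of these data known. Named genes were all members, up to 4 called genes of each list by size (or the 2 largest differences where none passed), and the 3 genes most like each called member; not every list gene taken is named, and OSGIN1 and, with knockdown, TFRC were named after their values were seen. Promoters came from RefSeq. The fit was tested on simulated data. The alternatives covered normalization, filter, probe set choice, prior, weights, block, threshold and each array left out; those for the 3 other pairs and for list genes were chosen after seeing the data. Figures were drawn with matplotlib 3.10.9.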

Additional observations from a re-analysis of the deposited data

How the results depend on the processing

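No member's difference changed sign between settings in which it passed, and the calls of MAFF, JUNB and the brightest JUN and JUND probe sets, and of FOS with knockdown, held in every alternative run of the knockdown comparison. Counts depended more on the setting. With 1 brightest probe set per gene, 6 members passed with knockdown, 5 in the difference of effects and 7 in the F test, and 3768 of all in the control comparison; with the mean per gene these were 7, 6, 7 and 3834. Fits on 6 arrays called 597 of all probe sets with overexpression, where the full fit called 931, and 1055 with knockdown, where it called 2184. Array weights called 1852 with overexpression, and 3 members between knockdown and empty vector. At an adjusted p under 0.01, 335 of all probe sets passed with overexpression, 901 with knockdown, 1683 in the difference and 3008 between the controls. Of the members, 7 passed with knockdown, 3 for overexpression over scrambled shRNA, 4 over knockdown and 6 by the F test. At 0.1, 1557 and 3354 of all passed with overexpression and knockdown, and 1 member between knockdown and empty vector.

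Leaving out 1 array at a time gave 410 to 1247 of all probe sets with overexpression (members 3 to 5), 1308 to 2073 with knockdown (members 7 to 11), 2449 to 3366 in the difference (members 9 to 10) and 3975 to 6309 between the controls (members 6 to 9). Members called were 0 to 0 between knockdown and empty vector, 3 to 8 for overexpression over scrambled shRNA, 5 to 9 over knockdown and 9 to 12 by the F test. The lowest control count, 3975, came without empty vector replicate 2, as did the 410; the 1308 came without knockdown replicate 1, and 1442 and 1418 without scrambled replicate 2 and knockdown replicate 3. In 8 of 18 pairs, same-numbered arrays of different groups deviated together at r over 0.1 (range -0.11 to 0.38), and 8 of 12 arrays were closest to their own number. Same-numbered arrays may therefore share some deviation, which the main fit did not model. With the replicate block 4 members passed with overexpression, 11 with knockdown, 9 in the difference and 9 between the controls.

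With 3 arrays a group, a member that did not pass is not shown to be equal between groups. Values are arrays' summarised signals, and probe sets of the x_at type can read related transcripts.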
